A study of Mus musculus with 13 samples.

Results

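The merged ESR1 peak regions of mouse fibroblasts that hold an estrogen response element (ERE) close to a summit are described here. ESR1 is estrogen receptor alpha, and it was profiled by ChIP-Seq, in which an antibody pulls down the receptor with the DNA it sits on and places where the sequenced fragments pile up are called as peaks. A peak was chosen when the 13-bp palindrome GGTCANNNTGACC, 2 half-sites of 5 bases around a spacer of 3 bases, lay within 100 bp of its summit in the mm10 genome with at most 1 mismatch among the 10 half-site bases. Of 686823 peaks in 12 lists, 13209 met this rule. Overlapping peaks of the 12 lists were merged into 228284 regions, and 4227 of these held a chosen peak: 455 with an exact element and 3772 with 1 mismatch. Sequence near a summit chose the regions, and neither rank nor treatment was used. Any peak of a region could bring it in, so a region with peaks in more libraries had more chances to be chosen, and recurrence is not independent of the rule.

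The cells were primary fibroblasts of Aromhum mice, grown from lower abdominal muscle (LAM). The mice carry the human aromatase gene; the enzyme makes estradiol (E2), and the study calls these cells hernia-associated fibroblasts. Every library came from cells of this genotype, so no group lacked the transgene. After serum starvation and a pretreatment of 3 hours with fulvestrant or its solvent, the cells were harvested 1 hour after E2 or its solvent. The 4 treatments were vehicle (ethanol and DMSO), E2 at 10 nM, E2 at 10 nM plus fulvestrant at 100 nM, and fulvestrant alone at 100 nM, with 3 libraries each; E2 plus fulvestrant is also called both agents. The 6 libraries of the treatments with E2 are called libraries given E2 below. Nothing in the labels says that the 3 libraries of a treatment came from separate mice or cultures, so p-values measure the spread between libraries, which may be technical. The input sample was not analysed here, and peak lists hold no gene expression, so the cell type could not be checked against its markers.

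The ERE is the DNA sequence to which an estrogen receptor dimer binds directly, each receptor molecule on 1 half-site, and the symmetry of the palindrome mirrors that of the dimer. Estrogen receptors also reach DNA at elements that depart from the consensus and by way of other transcription factors, so ESR1 peaks without an ERE are common. Fulvestrant is an ESR1 antagonist that competes with E2 for the receptor and promotes its degradation.

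Both E2 replicate 1 and fulvestrant replicate 2 stood apart from the other libraries. In them 59.4% and 27.9% of peaks had a summit window mostly of annotated repeats, against 5.57% to 7.79% in the other 10. Several results that rest on these libraries are given with and without them, and the others with all 12 libraries only. The lists held 34293 to 104571 peaks; sequencing depth is unknown from peak lists, and a longer list gives every region more chances of a peak.

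The exact elements with the best ranks are shown first, because they give the element and its surroundings at the highest-ranked peaks. Each line holds 61 bases of mm10, 5′ to 3′ on the plus strand, with the 13-bp element in capitals.
Gm33201, chr6:100060037-100060097: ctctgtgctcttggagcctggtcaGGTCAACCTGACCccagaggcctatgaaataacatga
Gm43782, chr5:118812987-118813047: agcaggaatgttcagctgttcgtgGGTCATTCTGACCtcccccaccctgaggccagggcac
Cgnl1, chr9:71757551-71757611: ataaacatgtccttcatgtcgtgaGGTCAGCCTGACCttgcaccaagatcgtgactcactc
Gm14215, chr2:154716785-154716845: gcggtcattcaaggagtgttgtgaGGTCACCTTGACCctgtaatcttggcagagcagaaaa
Gm40038, chr3:41182797-41182857: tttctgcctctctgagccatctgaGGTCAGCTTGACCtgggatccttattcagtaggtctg
Cap1, chr4:122891496-122891556: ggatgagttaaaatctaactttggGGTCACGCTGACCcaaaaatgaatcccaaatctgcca
Zxdc, chr6:90355809-90355869: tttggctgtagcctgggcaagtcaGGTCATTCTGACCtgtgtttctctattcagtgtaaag
Tprg, chr16:25220722-25220782: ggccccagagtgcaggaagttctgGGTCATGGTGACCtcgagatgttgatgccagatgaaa
Tacc1, chr8:25211937-25211997: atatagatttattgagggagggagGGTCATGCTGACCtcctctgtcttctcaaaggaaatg

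Each region is named after the gene with the nearest transcription start site, which need not be a gene it regulates. Rank is given as a percentile of a library's own list ordered by p-value, 0 being the top, and a region takes the rank of its best peak. All 9 of these regions had a peak in all 12 libraries. The region of Gm33201, a long noncoding RNA, lay in intergenic sequence 68858 bp from the start site. Its percentile was 0.00195, 0.00583 and 0.00503 in the vehicle libraries, 0.12, 0.00164 and 0.00145 with E2, 0.00244, 0.00197 and 0.00151 with both agents, and 0.0094, 0.00495 and 0.00874 with fulvestrant alone. It was the first peak of the list in 6 libraries and stood at rank 126 in E2 replicate 1. The fold enrichment over local background at this region was 16.6 to 33.2.

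The intergenic region 66067 bp from Tprg stood at percentile 0.00235 to 0.0149 in 11 libraries and at 8.04 in E2 replicate 1. The intronic regions of Tacc1, a coiled-coil protein of the mitotic spindle, and Cgnl1, a junction protein of the cingulin family, had percentiles of 0.00219 to 0.103 and 0.0145 to 0.552 outside that library, where they stood at 7.96 and 2.13. The same library held the worst percentile of 8 of these 9 regions. These regions were chosen for their mean rank over all 12 libraries, so a high rank with and without E2 follows from the choice. For none of the 9 did the rank difference between libraries given E2 and the others pass the test (limma on log2 rank, adjusted p of 0.95 or more).

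The 1-mismatch elements with the best ranks are shown next, because they show which departures from the consensus the strongest such peaks carried. A substitution is written with the consensus base first, then its position counted from 1 at the outer end of the half-site, with the half-site read as GGTCA on its own strand, then the base found. Zcchc10 and Ube2r2 carried T3G, Gm16183 carried T3C, Gm16299 carried G1T, and Lrp1 and 1600020E01Rik carried A5G.
Zcchc10, chr11:53314849-53314909: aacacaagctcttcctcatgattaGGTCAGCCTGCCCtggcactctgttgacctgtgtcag
Gm16299, chr19:53852750-53852810: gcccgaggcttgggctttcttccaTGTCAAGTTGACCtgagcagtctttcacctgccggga
Gm16183, chr8:84635058-84635118: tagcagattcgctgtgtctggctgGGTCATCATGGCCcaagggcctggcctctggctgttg
Lrp1, chr10:127614678-127614738: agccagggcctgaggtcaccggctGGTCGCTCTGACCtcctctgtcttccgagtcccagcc
Ube2r2, chr4:41136588-41136648: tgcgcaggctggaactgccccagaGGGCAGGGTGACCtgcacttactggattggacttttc
1600020E01Rik, chr6:86527080-86527140: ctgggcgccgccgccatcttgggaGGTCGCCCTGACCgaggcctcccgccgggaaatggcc

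Zcchc10, a zinc finger protein gene, lay 9793 bp from its element, and the region had percentiles of 0.0101 to 0.0117 with vehicle, 0.00435 to 0.184 with E2, 0.00302 to 0.022 with E2 plus fulvestrant and 0.0153 to 0.166 with fulvestrant. The promoter region of Cct4, a subunit of the cytosolic chaperonin, carried A5T and stood at 0.00991 to 0.0754 in the 6 libraries without E2 and 0.161 to 0.621 in the 6 with it, with no overlap (log2 rank change -2.72 ± 0.898 SE, limma adjusted p = 0.199). Angpt4, an angiopoietin gene, carried T3G, and Gm48420 and Gm33091, noncoding transcripts, carried T3C. Some of these regions were long merged stretches: that of Lrp1, a lipoprotein receptor gene, ran from 127607696 to 127623495 on chromosome 10, so its best peak need not be the peak at the element.

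Elements of different sequence had a summit within 100 bp at different rates. In mm10 the 13-bp element occurred 2367 times without a mismatch and 71428 times with 1. A summit in at least 1 list lay near 455 exact elements (19.2%) and 3908 with 1 mismatch (5.47%). The following shares are means over the 12 libraries for elements outside annotated repeats. An exact element had a summit in 8.71% of cases and a 1-mismatch element in 1.65%, and the exact share was higher in 12 of 12 libraries (exact sign-flip test over libraries, two-sided, p = 0.000488, adjusted p = 0.000906 over 13 tests of this kind).

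The rate also differed with the bases next to the 13-bp element. Where the element was extended to the 15-bp form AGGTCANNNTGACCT, 15.4% of exact elements with both outer bases had a summit, 9.35% of those with 1 and 5.33% of those with none. Both against none differed by 10.1 percentage points and in the same direction in 11 of 12 libraries, E2 replicate 1 being the exception (exact sign-flip p = 0.000977, adjusted p = 0.00127). Away from promoters, that is over 3 kb from any start site, the shares were 16.2% and 5.11%, and both outer bases gave the higher share in 12 of 12 libraries. Among 1-mismatch elements the shares were 2.98% with both outer bases, 1.70% with 1 and 1.16% with none. Exact elements with a CpG in or beside the spacer had a summit in 16.9% of cases and those without in 8.43% (12 of 12 libraries, exact sign-flip p = 0.000488). The CpG group was small, 69 elements against 2008, and promoters were not set apart for it.

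**Figure D1:**
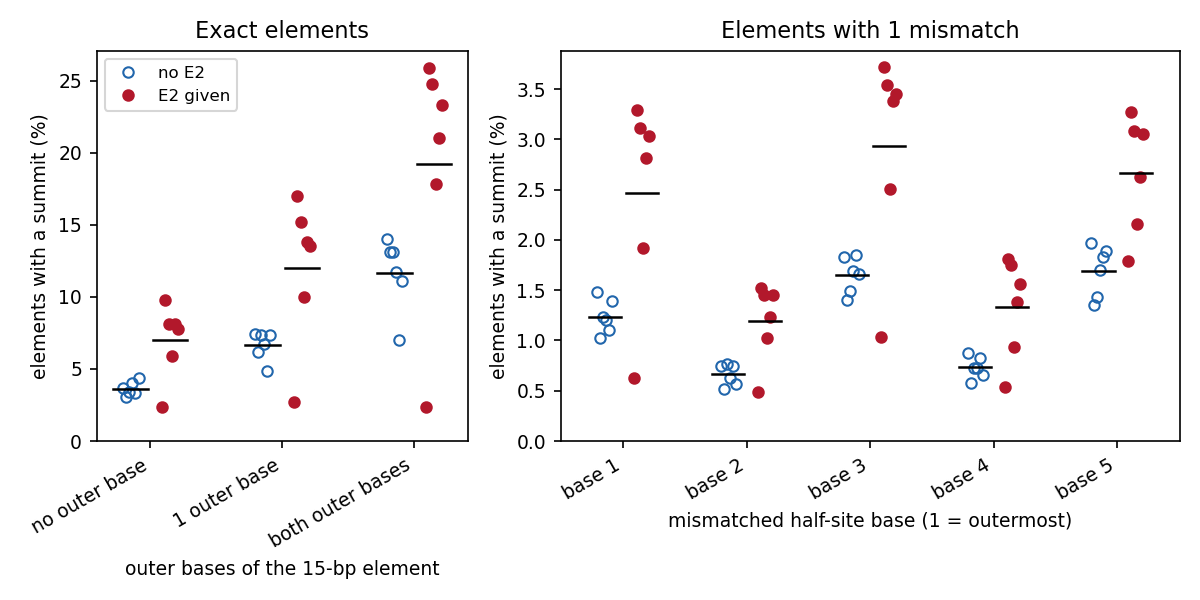
Share of ERE-like elements of mm10 outside repeats with a peak summit within 100 bp (y axes, percent; one scale per panel), by outer bases for exact elements (left) and by the mismatched base for 1-mismatch elements (right). Points are libraries, open without E2 and filled with E2, and bars are means of 6. Exact elements with both outer bases sit highest, at a mean of 19.2% with E2 and 11.7% without (exact permutation p = 0.0758). The low filled points are E2 replicate 1.

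The rate differed between positions of the half-site. The share with a summit was 1.85% for a mismatch at base 1, 0.927% at base 2, 2.30% at base 3, 1.03% at base 4 and 2.18% at base 5. Bases 2 and 4 gave the lowest shares in 12 of 12 libraries. Base 5 against base 2 differed by 1.25 percentage points and against base 4 by 1.15 (each in 12 of 12 libraries, exact sign-flip p = 0.000488), while base 5 and base 3 differed by less than the spread over libraries (4 of 12 libraries higher for base 5, exact sign-flip p = 0.32). Of the single substitutions A5G had the highest share, 9.37% on average and 5.84% to 16.2% by library, the highest of all substitutions in 12 of 12 libraries and close to that of exact elements. It occurred 377 times outside repeats, and away from promoters its share was 7.80%, against 1.08% for A5C and 1.56% for A5T. T3G came next, at 3.32%, and C4A was lowest, at 0.51%. These substitutions were singled out after their values were seen and were not tested against each other.

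With E2 the share of exact elements outside repeats with a summit was 11.2% ± 4.67 (SD, n = 6), against 6.25% ± 0.878 (n = 6) without (exact permutation p = 0.0368, adjusted p = 0.0491 over 4 such tests). For 1-mismatch elements it was 2.12% ± 0.726 against 1.18% ± 0.131 (exact permutation p = 0.0195, adjusted p = 0.039). For exact elements with both outer bases it was 19.2% ± 8.76 against 11.7% ± 2.52, which did not pass (exact permutation p = 0.0758, adjusted p = 0.0758). With no outer base it was 7.02% ± 2.60 against 3.64% ± 0.481 (exact permutation p = 0.0173, adjusted p = 0.039). For exact elements with both outer bases, E2 replicate 1 stood at 2.33% and the other libraries given E2 at 17.8% to 25.9%. Libraries without E2 stood at 7.0% to 14.0%. The 4 tests were not repeated without E2 replicate 1. These shares are not corrected for list length, and a longer list has more summits in total. Exact elements did not follow list length throughout. The longest list, that of E2 replicate 1 with 104571 peaks, had the lowest share for exact elements outside repeats, 2.5%.

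Elements in annotated repeats had a summit less often: 3.33% of exact and 0.54% of 1-mismatch elements. The exact share was lower in repeats in 12 of 12 libraries and the 1-mismatch share in 11 of 12; in E2 replicate 1 the latter was 1.58% in repeats and 0.826% outside them. In promoters 1-mismatch elements had a summit more often than elsewhere, 2.88% against 1.43% (12 of 12 libraries, exact sign-flip p = 0.000488). For exact elements the promoter share was 8.20% and the share elsewhere 8.81% (2 of 12 libraries higher in promoters, exact sign-flip p = 0.143). Where a window of the same size was placed 2 kb upstream of each summit as background, 0.0145% to 0.0302% of windows held an exact element, against 0.295% to 0.565% at the summits of the 10 libraries other than the 2 that stood apart. In those 10 libraries the ratio of summit to background was 11.7 to 34.4 for exact elements and 2.40 to 4.42 for 1 mismatch. In E2 replicate 1 it was 2.84 and 0.673, and in fulvestrant replicate 2 it was 5.71 and 1.26, so the 1-mismatch elements of E2 replicate 1 were no more frequent at summits than upstream.

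Elements sat close to the summits. Over the 12 lists together the centre of an exact element lay at a median of 23 bp from the summit, 45.7% of them within 20 bp. The median was 33 bp for 1 mismatch (32.4% within 20 bp) and 43 bp for elements with 2 mismatches (24.8%), which were not chosen. Library by library, exact elements were closer than 1-mismatch elements in 12 of 12, a mean difference of -9.75 bp (exact sign-flip p = 0.000488). Just inside the 100-bp limit lay 1467 peaks with a median rank percentile of 45.2, and just outside it 1261 with a median of 50.8. On the other edge of the rule, the pooled median percentile was 29.1 for 1 mismatch and 45.1 for 2 mismatches.

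**Figure D2:**
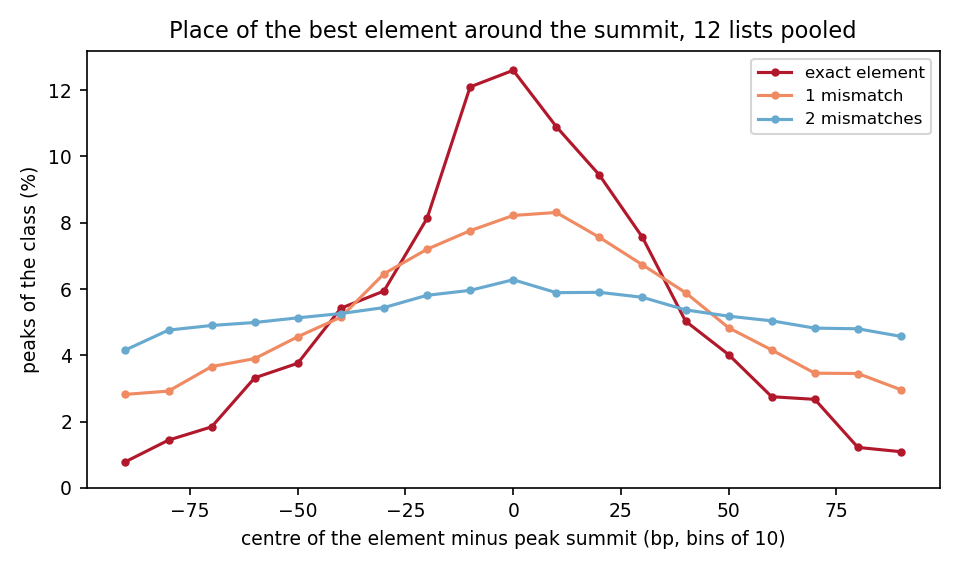
Position of the best element relative to the peak summit (x axis, bp, bins of 10; y axis, percent of the peaks of each class), 12 lists pooled. Exact elements (2288 peaks) pile up at the summit, 1-mismatch elements (10921 peaks) less so, and 2-mismatch elements (59108 peaks) lie almost evenly.

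Of the 4227 regions, 921 (21.8%) lay in promoters, within 3 kb of a start site, 152 (3.60%) in other exons, 1708 (40.4%) in introns and 1446 (34.2%) between genes. Exact regions lay in promoters in 16.0% of cases and in introns in 44.8%. In each library fewer exact than 1-mismatch peaks were in promoters, a mean difference of -10.5 percentage points (12 of 12 libraries, exact sign-flip p = 0.000488). A start site lay within 50 kb of 84.0% of regions, and the nearest gene was protein-coding for 46.3%. More than 1 element was held by 87 regions (2.06%), and the most in 1 region was 8. Kcnma1, a potassium channel gene, was nearest to 5 of the regions, the most of any gene, none of them exact. The median region spanned 634 bp, against 342 bp for regions without an ERE, and 16.7% were mostly repeats, against 35.2%. Of regions without an ERE, 64.9% had a peak in only 1 library, against 29.0% of ERE regions. Among regions without an ERE that had a peak in at least 2 libraries, the median was 498 bp. Of these, 15746 of 78725 were mostly repeats, so both gaps to all ERE regions were smaller. The ERE regions were not restricted in this way.

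ERE regions recurred between libraries. Of the exact regions 84.2% had a peak in at least 2 libraries, of the 1-mismatch regions 69.4% and of the regions without an ERE 35.1%. A peak in all 12 libraries was found in 64 exact regions (14.1%), 439 1-mismatch regions (11.6%) and 3.26% of regions without an ERE. The median number of libraries was 6, 4 and 1. A peak of a region need not lie at its element: a summit in all 12 lists lay near 24 exact and 43 1-mismatch elements. Regions whose best element had 2 mismatches had a peak in all 12 libraries in 10.7% of cases, close to the 1-mismatch share, and the rest in 2.24%. Longer regions overlap more peaks, and a region with more peaks had more chances to show an element, so these shares describe the regions and were not tested.

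Peaks with an exact element also stood higher in the lists. The median percentile of exact peaks was 10.3, 10.3 and 8.18 in the vehicle libraries, 30.6, 10.2 and 13.4 with E2, 9.89, 7.19 and 6.17 with both agents, and 14.9, 21.4 and 15.0 with fulvestrant alone. For 1 mismatch it was 33.2, 28.9 and 30.1 with vehicle, 68.2, 21.7 and 25.8 with E2, 26.4, 24.1 and 21.1 with both agents, and 31.6, 41.7 and 32.3 with fulvestrant alone. Exact peaks ranked better in 12 of 12 libraries, a mean difference of -19.0 percentile points (exact sign-flip p = 0.000488, the smallest that 12 libraries can give). The difference was smaller with the 15-bp element (-7.51) and among peaks with a −log10 q of at least 10 (-8.51), and passed in both. The median fold enrichment of exact peaks was 4.21 to 7.04 by library, that of 1-mismatch peaks 3.29 to 4.74 and that of all peaks 2.82 to 4.15.

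**Figure D3:**
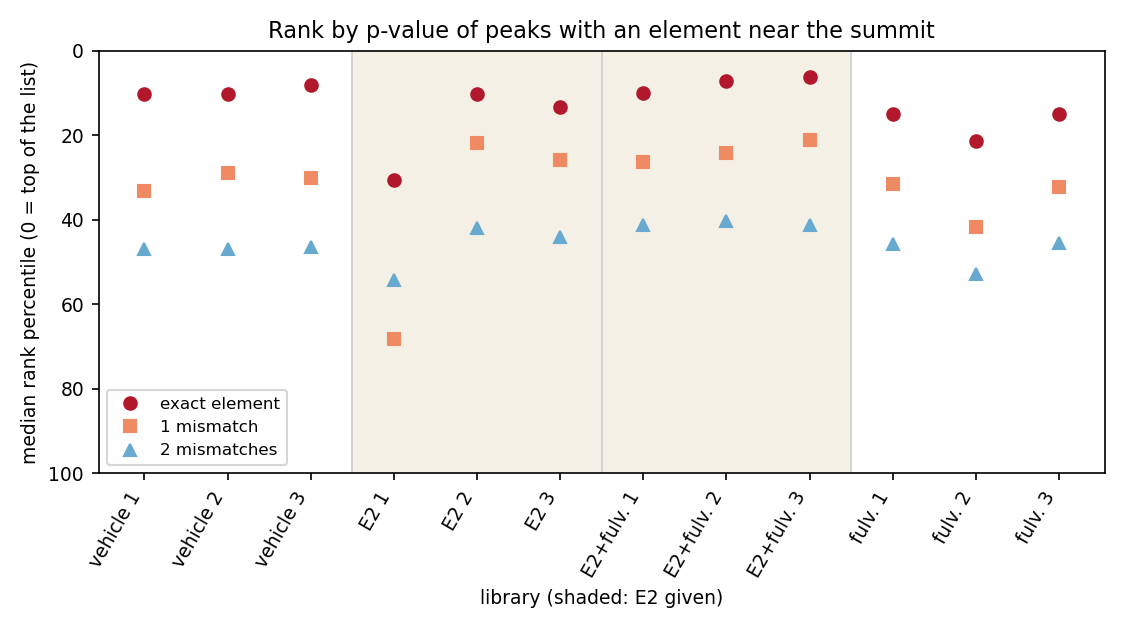
Median rank percentile (y axis, 0 at the top of the list, axis inverted) of peaks with an exact, a 1-mismatch or a 2-mismatch element in each of 12 libraries, shaded where E2 was given. Exact elements sit highest in every library, and in E2 replicate 1 the 1-mismatch peaks fall to 68.2, below the 2-mismatch peaks.

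Whether the ERE regions were found more often with E2 was asked in 3 ways: by the share of regions with a peak, region by region, and by rank. Among regions with a peak in at least 2 libraries, exact regions had a peak in 52.0%, 44.1% and 49.6% of cases with vehicle, 27.4%, 91.4% and 88.3% with E2, 64.8%, 79.9% and 85.1% with both agents, and 47.0%, 38.9% and 50.4% with fulvestrant alone. For 1-mismatch regions the shares were 56.9%, 42.0% and 47.1% with vehicle, 34.0%, 80.5% and 83.2% with E2, 56.5%, 72.5% and 79.8% with both agents, and 49.9%, 50.3% and 52.1% with fulvestrant alone. In 5 of the 6 libraries given E2 the exact share was above that of every library without E2, and in the sixth, E2 replicate 1, it was the lowest of all. Regions without an ERE were present at 27.0% to 59.3%.

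**Figure D4:**
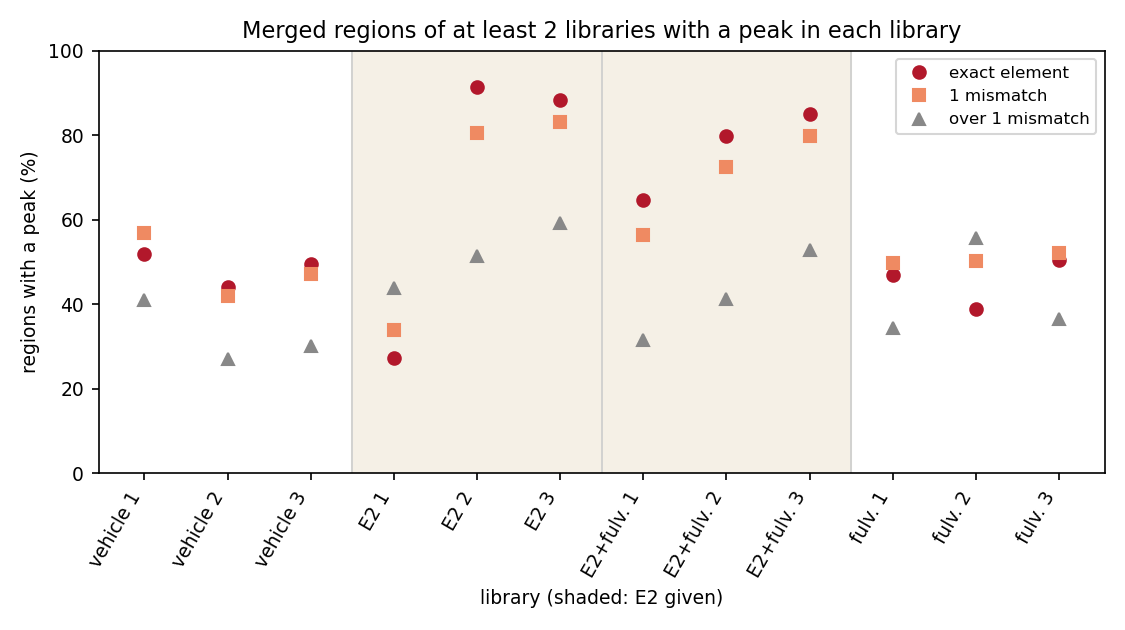
Share of merged regions of at least 2 libraries that had a peak in each library (y axis, percent), for exact, 1-mismatch and other regions, shaded where E2 was given. Exact regions reach 64.8% to 91.4% in 5 libraries given E2 and 38.9% to 52.0% without E2, and fall to 27.4% in E2 replicate 1.

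To take list length into account in part, the share for ERE regions was divided by that for regions without an ERE and expressed as a log2 ratio, called relative presence. No share can pass 100%, so the ratio has a lower ceiling in longer lists, and a test that was not passed does not show that the groups were alike. For exact regions it was 0.57 ± 0.63 (SD, n = 6) with E2 and 0.36 ± 0.46 (n = 6) without, which did not pass an exact permutation test (difference 0.20, two-sided p = 0.491, adjusted p = 0.857 over 11 measures). For 1-mismatch regions the difference was 0.06 (exact permutation p = 0.701). Without E2 replicate 1 and fulvestrant replicate 2, with regions taken anew from the other 10 libraries, the difference for exact regions was 0.30 (exact permutation p = 0.0397), so this call rests on leaving these libraries out. Between single treatments, 3 libraries against 3 cannot give an exact permutation p below 0.1. E2 plus fulvestrant exceeded fulvestrant alone in relative presence of exact regions by 0.76, with no overlap (exact permutation p = 0.1, adjusted p = 0.45 over 6 pairs), and exceeded vehicle by 0.30 (exact permutation p = 0.3). E2 fell below E2 plus fulvestrant by 0.65 on average (exact permutation p = 0.2), with E2 replicate 1 at -0.68 and E2 replicates 2 and 3 at 0.83 and 0.57. Paired by replicate number, E2 was lower in 3 of 3 pairs (exact sign-flip p = 0.25, the smallest that 3 pairs can give).

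The promoter share of ERE peaks was lower with E2 for the 13-bp element, but not under every choice of element and peaks. It was 20.8% ± 0.863 (SD, n = 6) with E2 and 24.9% ± 1.76 (n = 6) without, and all 6 libraries given E2 lay below all others (exact permutation p = 0.00216, adjusted p = 0.0119). Peaks without an ERE were also in promoters less often with E2, 34.6% ± 6.48 against 40.7% ± 4.35 (n = 6 each), which was not tested, so a lower promoter share was not particular to ERE peaks. The lower share concerned 1-mismatch peaks, 22.0% ± 0.855 with E2 and 27.4% ± 1.81 without, while exact peaks were in promoters in 15.4% ± 2.73 of cases with E2 and 12.9% ± 1.48 without. The gap between the classes differed with E2 by 7.98 percentage points (exact permutation p = 0.00216, adjusted p = 0.0119). The E2 difference in the promoter share was -1.40 points when peaks in repeats were removed (exact permutation p = 0.755), -0.715 at a −log10 q of at least 10 (exact permutation p = 0.825) and 0.516 with the 15-bp element (exact permutation p = 0.582), so the call was lost in each. The median rank percentile of ERE peaks was 28.7 ± 19.5 with E2 and 29.1 ± 4.81 without (exact permutation p = 0.994), and 20.8 ± 2.41 (n = 5) against 27.3 ± 2.13 (n = 5) without the libraries that stood apart (exact permutation p = 0.00794).

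Counted region by region, 76 of the 4227 ERE regions (1.80%) had a peak in more of the libraries given E2 at an unadjusted p below 0.05 in Fisher's exact test, against 0.159% of all 228284 regions. The share was 3.08% (14) for exact regions and 1.64% (62) for 1-mismatch regions, against 0.447% for regions with 2 mismatches and 0.0848% for the rest. Among regions with a peak in at least 5 libraries, the only ones that can reach this p, it was 3.76% of ERE regions against 1.07% of all. A peak less often with E2 was called in 1 ERE region, against 0.00219% of all regions and 0.0146% of those in at least 5 libraries. No region passed after Benjamini-Hochberg adjustment, the smallest adjusted p being 1.0. Without both libraries that stood apart the call was made in 318 of 3377 ERE regions (9.42%) and in 1.93% of all.

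Regions with a peak in 5 of 6 libraries given E2 and 0 of 6 others (Fisher's exact p = 0.0152) are shown, because they had a peak only in libraries given E2. In all 10 named regions of this kind the library without a peak was E2 replicate 1. Ceacam3, Gm37036, Gm17745 and Gm25842 carried exact elements, Gm48623 and Gm24253 T3G, and Gm8826 G1T.
Ceacam3, chr7:17155909-17155969: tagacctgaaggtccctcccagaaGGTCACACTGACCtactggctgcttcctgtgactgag
Gm37036, chr1:92078097-92078157: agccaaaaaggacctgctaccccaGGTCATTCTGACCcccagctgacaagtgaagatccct
Gm17745, chr10:93331622-93331682: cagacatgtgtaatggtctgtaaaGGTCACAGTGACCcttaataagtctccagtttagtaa
Gm25842, chr9:102997914-102997974: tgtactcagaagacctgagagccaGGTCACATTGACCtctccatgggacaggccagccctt
Gm48623, chr13:54307075-54307135: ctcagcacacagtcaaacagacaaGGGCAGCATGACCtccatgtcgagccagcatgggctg
Gm24253, chr11:56340594-56340654: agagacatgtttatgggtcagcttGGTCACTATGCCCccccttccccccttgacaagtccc
Gm8826, chr3:7453430-7453490: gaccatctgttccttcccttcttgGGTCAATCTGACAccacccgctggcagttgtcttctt

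The intronic Ceacam3 region stood at percentile 5.12 and 5.93 in E2 replicates 2 and 3 and at 20.2, 3.87 and 1.42 with E2 plus fulvestrant, with no peak in the other 7 libraries. The Gm17745 region lay 20577 bp from the nearest coding start site, that of Elk3, an ETS transcription factor, and had percentiles of 3.45 and 10.3 with E2 and 23.3, 13.3 and 7.60 with E2 plus fulvestrant. The Gm37036 region, 70270 bp from the start of Hdac4, a histone deacetylase gene, had 3.88 and 6.26 with E2 and 14.7, 14.6 and 15.8 with E2 plus fulvestrant. The Gm25842 region, 10096 bp from Slco2a1, a prostaglandin transporter gene, had 7.28 and 10.9, then 26.4, 16.5 and 27.3. As the missing library was E2 replicate 1 in each, a peak in all 3 libraries of E2 plus fulvestrant follows from the choice. The 1 region with a peak less often with E2, next to AC156982.1, had a weak peak in 5 of 6 libraries without E2, at percentile 36.4 to 89.4, and 71.1% of its summit window was repeats.

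By rank, 503 ERE regions had a peak in all 12 libraries and could be fitted among 7816 such regions with limma on log2 rank. The rank was that of the region's best peak, which need not be the peak at the element. With E2, 42 of them (8.35%) rose at an adjusted p below 0.05, against 1.31% of all regions fitted, and 0 fell, against 0.0%; at an unadjusted p below 0.05, 105 rose and 5 fell, against 462 and 175 of all 7816. Exact regions rose in 12 of 64 cases (18.8%) and 1-mismatch regions in 30 of 439 (6.83%), and the rest were 38 regions with 2 mismatches (1.31%) and 22 with more (0.499%). The median change in log2 rank was 1.13 for exact regions, 0.08 for 1-mismatch regions and -0.03 for all. A rise means a better rank, and as ranks are relative within a list it says nothing of total binding. Without both libraries that stood apart, 304 of 823 ERE regions (36.9%) rose and 8 fell, against 959 that rose (7.77%) and 186 that fell of all 12343. Without E2 replicate 1 alone, 201 ERE regions rose and 4 fell, against 6.38% of all that rose and 57 that fell. From 12 to 27 ERE regions rose, against 0.353% to 0.837% of all, when 1 of 9 other libraries was left out: a vehicle library, E2 replicate 2 or 3, E2 plus fulvestrant replicate 2 or 3, or fulvestrant replicate 1 or 2. The count was 12 without E2 plus fulvestrant replicate 2. It was 56 without E2 plus fulvestrant replicate 1 (2.25% of all) and 37 without fulvestrant replicate 3 (0.956% of all). On the quantile-normalised fold enrichment limma raised 8, against 0.345% of all.

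The elements of the regions that rose most are shown, because they are the sites whose standing among peaks changed most with E2. AC163635.1 held an exact element, Gm15736 and Gm11528 T3G, Rai1 and Gadd45b A5G, Gm14642 T3C, 5730435O14Rik G1T and Gm12248 A5T.
Gm15736, chr5:113633164-113633224: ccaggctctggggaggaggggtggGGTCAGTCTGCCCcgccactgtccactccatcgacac
AC163635.1, chr17:29428447-29428507: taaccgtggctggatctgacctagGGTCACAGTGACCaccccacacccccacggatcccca
Gm11528, chr11:95621135-95621195: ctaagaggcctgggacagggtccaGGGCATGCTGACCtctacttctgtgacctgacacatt
Rai1, chr11:60176792-60176852: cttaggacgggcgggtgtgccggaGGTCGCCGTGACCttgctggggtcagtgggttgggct
Gm14642, chr2:173413984-173414044: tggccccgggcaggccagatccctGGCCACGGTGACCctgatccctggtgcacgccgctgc
5730435O14Rik, chr10:41576710-41576770: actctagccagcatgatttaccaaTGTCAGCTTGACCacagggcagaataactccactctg
Gadd45b, chr10:80936494-80936554: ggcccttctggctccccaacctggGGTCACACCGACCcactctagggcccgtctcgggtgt
Gm12248, chr11:58067012-58067072: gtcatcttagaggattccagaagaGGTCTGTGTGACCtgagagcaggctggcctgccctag

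The region at Gm15736, an antisense transcript, lay in an intron 17183 bp from the start of Cmklr1, the gene of the chemerin receptor. Its percentile was 12, 28.4 and 15.1 with vehicle, 0.383, 0.333 and 0.917 with E2, 0.971, 0.651 and 1.05 with both agents, and 21.4, 10.5 and 38.1 with fulvestrant alone. All 6 libraries given E2 stood above all 6 others, E2 replicate 1 included (log2 change 4.35 ± 0.485 SE, limma adjusted p = 2.52e-05). The Rai1 promoter region, at a gene for a transcriptional regulator, had percentiles of 12.5, 26.9 and 36.3 with vehicle, 0.225, 0.736 and 1.93 with E2, 2.21, 0.818 and 2.11 with both agents, and 41.2, 9.10 and 13.1 with fulvestrant (log2 change 3.77 ± 0.497 SE, adjusted p = 0.000279). Here too the groups did not overlap.

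The exact element at AC163635.1 ranked at 58.1, 33.2 and 19.8 with vehicle, 77.9, 0.507 and 0.303 with E2, 1.98, 0.816 and 0.509 with both agents, and 48.0, 30.6 and 24.2 with fulvestrant (log2 change 4.02 ± 0.697 SE, adjusted p = 0.00391). Its E2 replicate 1 value was the worst of all 12. The other 5 libraries given E2 stood above all 6 without it. Near Gadd45b, a stress-inducible gene, the region stood at 5.58, 21.2 and 7.74 with vehicle, 0.044, 0.415 and 2.15 with E2, 4.59, 0.871 and 0.92 with both agents, and 52.9, 3.11 and 31.2 with fulvestrant (adjusted p = 0.00497); the value of fulvestrant replicate 2 lay within the range of the libraries given E2. An intronic region of Setbp1 rose by 3.72 ± 0.718 SE and one near Gm23581 by 3.66 ± 0.608 SE on the log2 scale (adjusted p = 0.00889 and 0.0034).

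**Figure D5:**
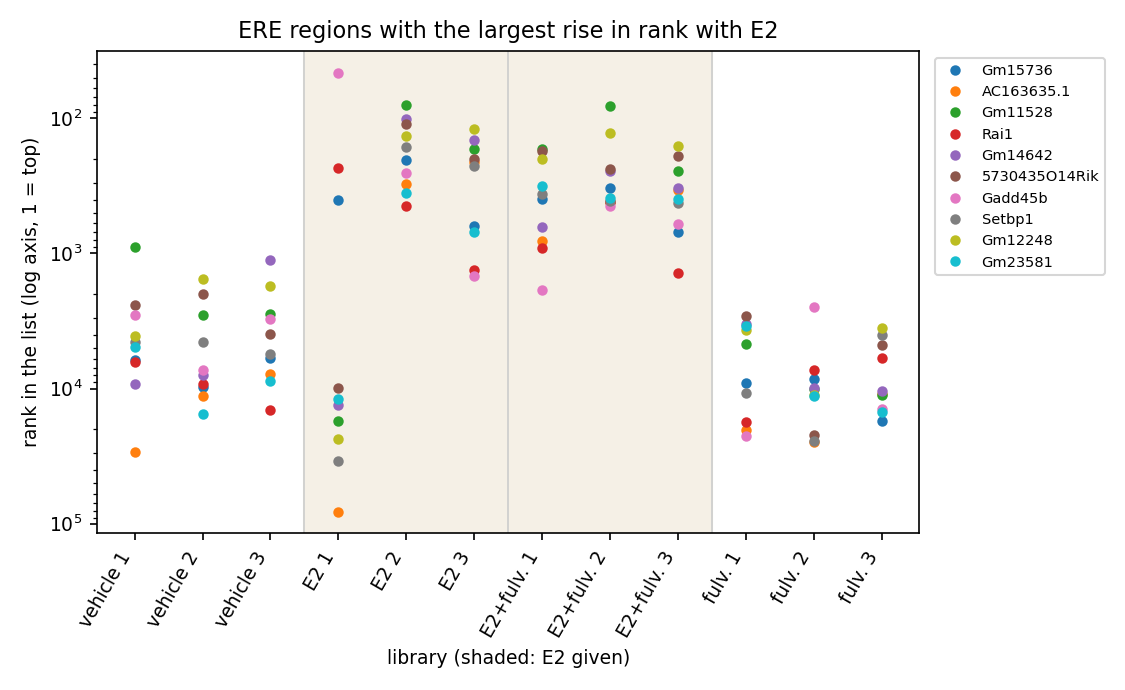
Rank in each list (y axis, log scale, 1 at the top) of the 10 ERE regions with the largest rise in rank with E2, in 12 libraries, shaded where E2 was given. Most points with E2 plus fulvestrant and in E2 replicates 2 and 3 lie above those without E2, and in E2 replicate 1 a part of them, such as AC163635.1 at percentile 77.9, stays low.

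Between single treatments fewer regions passed. E2 against vehicle raised 2 ERE regions (0.0384% of all regions fitted rose) and lowered 0 (0.0% of all). E2 plus fulvestrant against vehicle raised 5 (0.205% of all) and lowered 0 (0.0%). E2 against E2 plus fulvestrant raised 0 (0.0%) and lowered 1 (0.0256% of all). With the replicate number as a block, the ERE counts were the same for E2 against vehicle and for E2 against E2 plus fulvestrant. E2 plus fulvestrant against vehicle then raised 27 ERE regions (0.793% of all) and lowered 0 (0.0128% of all). Fulvestrant against vehicle raised 0 and lowered 0 (0.0% of all in either direction), with 5 higher and 12 lower at an unadjusted p below 0.05, against 136 higher and 126 lower of all 7816. These contrasts share libraries. The median log2 change of exact regions was 0.33 for E2 against vehicle, 1.10 for E2 plus fulvestrant against vehicle and -0.74 for fulvestrant against vehicle. For E2 against E2 plus fulvestrant it was -1.64, a comparison that includes the low E2 replicate 1.

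Of the ERE regions nearest to genes of lists relevant to estrogen and to fibroblasts none was called in either test, and of all ERE regions 1.80% were called by presence. Of 26 annotated estrogen target genes 5 (19.2%) were nearest to an ERE region within 50 kb: Greb1, Nrip1, Cyp1b1, Ltf and Vegfa. Of 36 fibroblast matrix genes 10 (27.8%) were, and of 14 genes the study names 1 (Greb1). Among all protein-coding genes the share was 7.13%. The share was thus higher in the estrogen target and matrix lists than among all protein-coding genes, a difference that was not tested.

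The elements at Greb1, Nrip1, Col1a1 and Pdgfra are shown, because they lie at genes of estrogen action and of fibroblasts. The first Greb1 element and that of Nrip1 are exact, the second Greb1 element carries T3G, Col1a1 carries G1A and Pdgfra T3A.
Greb1, chr12:16760507-16760567: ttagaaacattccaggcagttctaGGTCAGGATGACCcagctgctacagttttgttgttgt
Greb1, second, chr12:16790586-16790646: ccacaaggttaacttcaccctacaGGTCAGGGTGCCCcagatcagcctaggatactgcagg
Nrip1, chr16:76373662-76373722: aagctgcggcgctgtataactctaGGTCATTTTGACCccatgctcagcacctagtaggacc
Col1a1, chr11:94940247-94940307: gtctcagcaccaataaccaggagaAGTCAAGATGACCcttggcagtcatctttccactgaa
Pdgfra, chr5:75151056-75151116: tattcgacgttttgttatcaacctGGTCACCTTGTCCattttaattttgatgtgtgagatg

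Greb1 is an estrogen-induced gene that encodes an ESR1 cofactor. The exact region, in an intron 3319 bp from a start site, stood at percentile 9.57, 17.0 and 17.1 with vehicle, 1.13 and 4.78 in E2 replicates 2 and 3, 2.52, 1.61 and 1.12 with both agents, and 17.5 and 21.3 in fulvestrant replicates 1 and 3. E2 replicate 1 and fulvestrant replicate 2 had no peak, and in the other libraries every value with E2 was better than every value without. The second region, 10078 bp from a start site, had a peak in 5 of 6 libraries given E2 and 2 of 6 others (Fisher's exact p = 0.242).

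Nrip1, a corepressor that binds the receptor, held an exact element at its promoter, with percentiles of 9.02 to 18.5 with vehicle, 1.16 to 6.50 with E2, 5.34 to 7.71 with E2 plus fulvestrant and 2.10 to 12.2 with fulvestrant (log2 change 0.86 ± 0.397 SE, limma adjusted p = 0.562). Cyp1b1, which hydroxylates estradiol, ranked at 2.52 to 25.3 with a T3A element in its promoter. The Ltf element had a peak in E2 replicate 1 alone, and that of Vegfa in 7 libraries.

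Among matrix genes, the region of Col1a1, a chain of type I collagen, ranked at 1.29, 1.32 and 1.78 with vehicle, 34.0, 4.24 and 0.898 with E2, 4.74, 5.88 and 4.96 with both agents, and 1.30, 5.08 and 1.22 with fulvestrant (log2 change -1.14 ± 0.637 SE, adjusted p = 0.737). The groups overlapped. Pdgfra, the receptor that marks these fibroblasts, ranked at 0.374 to 3.21 in all libraries. Its region ran from 75148016 to 75157562 on chromosome 5. In long regions such as this and those of Nrip1, Cyp1b1, Col1a1 and Loxl1, the best peak need not be the peak at the element. Loxl1, an enzyme that crosslinks elastin, held 2 regions with A5C elements, both in all 12 libraries. Pdgfrb, the other platelet-derived growth factor receptor, had a region in all 12 libraries, and Timp2, a protease inhibitor, in 11. Thbs2 and Ccn1, secreted matricellular proteins, had peaks in 7 and 5 libraries, Timp3 and Fap in 2 each, and Col6a1 in 1.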

How the data were processed

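Per the study's methods and the submitters' processing notes, Trimmomatic 0.39 was used by the authors for trimming, Bowtie2 for alignment to mm10, Picard 2.21.4 for duplicate removal and MACS2 2.2.71 for peak calling. Each deposited list belonged to 1 library. It gave where each peak and its summit lay, the fold enrichment there as a ratio to local background, and the −log10 of its p-value and of its q-value, as the authors computed them. The deposited score, a rescaled −log10 p, was not used. Whether peaks in blacklisted regions had been removed before deposit was not stated. Fold and p-value belong to a peak within its list, so they were used to rank peaks within lists. The lists hold no counts, so the authors' count test on peaks could not be run here.

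The GRCm38 (mm10) genome was scanned on both strands for the 13-bp element; the rule gave half-sites of 6 bases and a total of 13 bp, which disagree, so half-sites of 5 bases were used and the 15-bp form was an alternative. Peaks were merged over lists by overlap of at least 1 base. The nearest start site and the location came from the GENCODE basic annotation, with older symbols of listed genes matched through RefSeq, and repeats from the soft-masking of the genome. Region-level presence was compared with Fisher's exact test, library-level values with exact permutation tests (two-sided) or sign-flip tests over libraries (scipy 1.17.1, Python 3.11.15), and log2 ranks with limma 3.58.1 (R 4.3.3) and Benjamini-Hochberg adjustment; the scripts were tested on simulated data. Groups and replicate numbers came from the labels. Deviations from the treatment mean correlated by 0.111 to 0.217 in all 3 same-numbered pairs of E2 and E2 plus fulvestrant. The library-level values of these treatments were therefore also compared as pairs. Over all pairs of treatments the correlations ran from -0.533 to 0.421, with no other pair of treatments above 0.1 at every number.

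Named regions were the 10 exact and 10 1-mismatch regions of best mean rank, up to 10 with the largest rank change past an adjusted p of 0.05, up to 10 with a peak in at least 5 of 6 libraries given E2 and 0 of 6 others, and those nearest to listed genes within 50 kb; AC156982.1, Kcnma1 and the single substitutions were chosen after their values were seen. The members and lists were chosen with earlier results of these data known. Some named regions, 1 gene list and elements on 1 chromosome are not reported here.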

Additional observations from a re-analysis of the deposited data

Results flagged for a closer look

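The library-level values were searched for libraries far from the others of their group with Dixon's test in 16 groups of 6 libraries, of which chance would mark about 1 in 20; 12 were marked. E2 replicate 1 lay apart from the other libraries given E2 in relative presence of ERE regions (-0.40), of exact regions (-0.68) and of 1-mismatch regions (-0.37). It also lay apart in the median rank percentile of ERE peaks (68.2), in the rank of exact less 1-mismatch peaks (-37.6 percentile points), in the exact share of ERE peaks (6.84%) and in the median distance of the element from the summit (45.0 bp). Fulvestrant replicate 2 lay apart from the other libraries without E2 in relative presence of ERE regions (-0.19), of exact regions (-0.52) and of 1-mismatch regions (-0.15), in median rank percentile (38.1) and in distance (42.0 bp). These are the libraries with 59.4% and 27.9% of peaks mostly in repeats, and the part of repeats in these values was not tested.

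The effect of fulvestrant on relative presence was compared between cells with and without E2. For all ERE regions the difference of the 2 effects was 0.8121 on the log2 scale (exact permutation over libraries, p = 0.039, adjusted p = 0.156), and for 1-mismatch regions 0.7723 (exact permutation p = 0.0368, adjusted p = 0.156). Fulvestrant changed the mean for ERE regions from 0.26 to 0.76 with E2 and from 0.59 to 0.28 without, and each change includes a library named above. Neither difference passed the adjustment over 8 measures.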

How the results depend on the processing

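Of 262 values recomputed under another choice, 202 were classed as the same, 33 as moved, 16 as reversed, 9 as stronger and 2 as weaker. Counts of regions, which have no threshold, are among them. A test classed as the same kept its direction and its side of the threshold. The rank advantage of exact over 1-mismatch peaks kept both throughout (-19.7 to -17.3 percentile points with 1 library left out), but shrank to -7.51 with the 15-bp element and -8.51 at a −log10 q of at least 10. The promoter difference was -4.42 to -3.49 points with 1 library left out, but 0.516 with the 15-bp element, -0.715 at a −log10 q of at least 10 and -1.40 without peaks in repeats, the first of opposite sign and the others no longer past the threshold. Without both E2 replicate 1 and fulvestrant replicate 2, 4 differences with E2 that had not passed the threshold did so, and the promoter share still passed (-3.68): relative presence of exact regions (0.297), its gap to 1-mismatch regions (0.156), median rank (-6.47) and distance (-5.20 bp). Over all merged regions the E2 difference in relative presence was -0.00584 for ERE and -0.0200 for 1-mismatch regions. With only peaks whose summit lay within 100 bp of the element counted for ERE regions, it was 0.342 (exact permutation p = 0.439). For elements within 50 bp the E2 difference in median rank percentile was 0.194. At a −log10 q of at least 10 the E2 difference in the exact share passed (-6.60 points), and that in distance was 0.333 bp. The E2 difference in the gap between exact and 1-mismatch presence was -0.231 there and -0.0518 with the 15-bp element.

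With 1 library left out, the E2 difference was 0.0123 to 0.179 for relative presence of ERE regions, 0.109 to 0.355 for exact, -0.00385 to 0.153 for 1-mismatch regions, 0.111 to 0.202 for their gap, -8.27 to 1.83 for median rank, -2.49 to 0.427 for the exact share and -6.63 to -2.40 bp for distance. Without E2 replicate 1, relative presence of exact regions, their gap, median rank and distance passed. Regions present more often numbered 80 to 278 with 1 library left out (0.184% to 1.2% of all regions), 32 of 1037 with the 15-bp element (3.09%, against 0.159% of all), 318 without both libraries (1.93% of all) and 2 when 6 of 6 against 0 of 6 was required (0.00394% of all). Regions of changed rank, in either direction, numbered 12 to 205 with 1 library left out and 312 without both libraries. On quantile-normalised fold they numbered 8 (0.345% of all rose), and when ranked by fold 24 (0.691% of all rose). With the 15-bp element they numbered 15 of 113 (13.3%, against 1.31% of all). At a −log10 q of at least 10 they numbered 6 of 63 (9.52%, against 0.915% of all). At a −log10 q of at least 10, regions present more often numbered 106 of 1298 (8.17%, against 1.14% of all). The cause of these shifts was not tested.

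With the replicate number as a block, relative presence of ERE regions had an exact permutation p of 0.676 and the promoter share 0.00926, and the library-level E2 tests kept their side of the threshold. The block raised 54 ERE regions (10.7%), among them all 42 called without it, against 139 that rose and 2 that fell of all regions fitted (1.78% rose). For E2 plus fulvestrant against vehicle, whose numbers did not pair the libraries, it raised 27 ERE regions (0.793% of all) in place of 5. Pairing E2 with E2 plus fulvestrant was chosen after seeing the data, covered library-level values only and changed no call there. Sequencing depth is not known from peak lists, and a region without a peak may hold binding below the caller's threshold.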
